A study of Mus musculus with 6 samples.

Results

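The genes described here are 9 core components of the Hedgehog pathway: the receptor gene Ptch1, the co-receptor genes Boc and Cdon, the ligand-binding inhibitor Hhip, the signal transducer Smo, the inhibitor Sufu and the transcription factor genes Gli1, Gli2 and Gli3. They were taken by name, as the non-control probes whose RefSeq accession belongs to one of these genes. All 9 were on the array, on 13 of its 55681 probes, and all 9 could be tested among 24177 features. A feature is a gene, or a transcript without a gene name, represented by its brightest probe.

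The cells were precursor cells of the adult hippocampus, which divide in the dentate gyrus and can become neurons. They came from C57BL6/JRj mice, male and 8 weeks of age, and were kept in adherent culture with EGF and bFGF, both at 20 ng/ml. The control group received saline and the other group human LDL, the lipoprotein that carries cholesterol in blood, both for 48 h. The treatment protocol gives the LDL dose as 100 ug/ml, but the sample descriptions write another unit of volume, so the unit is uncertain by the labels themselves. Each group had 3 arrays, from independent experiments on different passages, and this small number limits how precisely a difference is known. Both groups are a culture model, held dividing by growth factors.

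In the Hedgehog pathway a secreted ligand binds Ptch1, with help from co-receptors such as Boc and Cdon, and so ends the inhibition of Smo that Ptch1 exerts. Active Smo gathers in the primary cilium and releases the Gli factors from Sufu, and Gli1, Ptch1 and Hhip are themselves classical target genes, so their transcripts serve as readouts of the pathway. Cholesterol enters at several steps: it is attached to the ligand, it binds and activates Smo, and Ptch1 resembles sterol transporters. In the adult hippocampus, Hedgehog signalling maintains precursor cells and promotes their division.

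The question is whether LDL changes transcripts of these genes, in a study of the LDL receptor and cholesterol in precursor cells. None of the 9 genes passed an adjusted p of 0.05 in limma, and 1, Cdon, had an unadjusted p below 0.05. Over all 24177 features, 0.136% passed after adjustment and 7.5% had an unadjusted p below 0.05. Gli1 had the largest difference of the 9, a log2 fold change of -0.69, with a wide interval that reached 0.0047 at its upper end. The other 8 genes had differences between -0.31 and 0.10.

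The share of probes well above background ran from 55.9%, on saline replicate 2, to 66.9%. Among all features, 5 passed as higher and 28 as lower after LDL. With arrays scaled to their median these counts were 8 and 22. The total was 0 when saline replicate 3, LDL replicate 2 or LDL replicate 3 was left out, and then 1556, 995 and 1372 features had an unadjusted p below 0.05. It was 3 when saline replicate 2 was left out (with 3773 at an unadjusted p below 0.05) and 18 when LDL replicate 1 was. Without saline replicate 1, 7 features passed as higher and 25 as lower, with 2204 at an unadjusted p below 0.05.

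Promoter stretches were read for motifs of Gli factors and of sterol control. RefSeq sequences of GRCm38.p6 covered 7 of the 9 genes, not Gli1 and Boc. Each window ran from 250 bases before to 50 bases after the listed start. The Gli motif searched was GACCACCCA, its core was CCACCC, which lies inside it, and the sterol element was TCACCCCAC, all on both strands. The Gli motif was in 0.253% of 32851 promoters and in 0 of the 7. The core was in 31.5% of promoters and in 4 of the 7, those of Smo, Gli2, Gli3 and Hhip. The sterol element was in 0.551% of promoters and in 0 of the 7, and in 1 of 5 sterol genes with an entry, Hmgcs1, an early enzyme of sterol synthesis. That window of Hmgcs1 also held the core of the Gli motif. A motif match is a description, and no match says only that these letters are not in this window.

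The 250 bases before the start are shown 5′ to 3′ for 4 genes. These are Smo, which sterols bind, Ptch1, a classical target, and Cdon, which had the smallest p of the 9, with Hmgcs1 as the sterol-controlled comparison. In this order, the stretches lie at chr6:29735247-29735496, forward strand, at chr13:63565736-63565985, reverse strand, at chr9:35451826-35452075, forward strand, and at chr13:119690101-119690350, forward strand. Capitals mark the core of the Gli motif in Smo, 162 bases before the start, and the sterol element in Hmgcs1, 137 bases before it. The listed starts of Cdon and of Ptch1 lie inside the spans of these genes in that assembly, so these windows need not be their main promoters.
Smo: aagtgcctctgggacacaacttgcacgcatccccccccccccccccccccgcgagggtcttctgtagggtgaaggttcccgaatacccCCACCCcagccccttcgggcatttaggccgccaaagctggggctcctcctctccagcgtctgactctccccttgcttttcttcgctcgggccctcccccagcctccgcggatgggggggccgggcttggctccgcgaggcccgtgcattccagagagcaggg
Ptch1: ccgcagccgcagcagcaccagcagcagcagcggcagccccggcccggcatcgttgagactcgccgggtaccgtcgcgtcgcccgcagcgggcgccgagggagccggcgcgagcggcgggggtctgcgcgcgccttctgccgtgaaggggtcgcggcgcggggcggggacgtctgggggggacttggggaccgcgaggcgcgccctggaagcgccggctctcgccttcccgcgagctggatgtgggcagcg
Cdon: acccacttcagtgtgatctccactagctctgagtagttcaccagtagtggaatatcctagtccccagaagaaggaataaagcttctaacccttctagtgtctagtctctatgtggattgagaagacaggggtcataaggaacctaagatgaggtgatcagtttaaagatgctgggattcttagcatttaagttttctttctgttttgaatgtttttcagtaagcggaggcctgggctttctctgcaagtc
Hmgcs1: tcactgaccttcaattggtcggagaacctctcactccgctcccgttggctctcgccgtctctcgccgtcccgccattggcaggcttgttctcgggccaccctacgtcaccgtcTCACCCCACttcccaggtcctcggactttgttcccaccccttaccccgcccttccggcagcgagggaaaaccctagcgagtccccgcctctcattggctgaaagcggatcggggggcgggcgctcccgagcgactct
The GC content of these stretches was 68.4% for Smo, 78.4% for Ptch1, 42.8% for Cdon and 64.8% for Hmgcs1, against a median of 52.4% over all promoters. The stretch of Cdon was thus the only 1 of these 4 below the median.

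All levels that follow are normalized log2 signals, in which 0 is the 75th percentile of an array's processed signals, and each gene is compared only with itself across arrays. Fewer cells of a type and less RNA per cell cannot be told apart in such data. Ptch1, the receptor that holds Smo inactive, had -2.78, -2.38 and -2.19 in saline replicates 1 to 3, and -2.65, -2.49 and -2.67 in LDL replicates 1 to 3. The LDL values lay within the range of the saline values. The means were -2.45 ± 0.30 with saline and -2.60 ± 0.10 with LDL (SD, n = 3 each), a log2 fold change of -0.15 with a 95% interval from -0.54 to 0.23 (limma adjusted p = 0.886). The interval spans a ratio of LDL to saline from 0.688 to 1.17. The difference of Ptch1 depended on single saline arrays. It was -0.03 without saline replicate 3, its highest value, and -0.32 without saline replicate 1, its lowest, where the unadjusted p was below 0.05 (limma adjusted p = 0.509). On the first slide row alone, which held replicates 1 and 2 of both groups, the difference was 0.0076. That setting leaves out replicate 3 of both groups, so slide row and replicate cannot be told apart in it.

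Hhip, a membrane-bound protein that captures the ligand, had the smallest difference of the 9, read from its brighter probe. Its saline levels were 0.06, -0.01 and 0.05, and its LDL levels were -0.04, 0.09 and -0.03, for means of 0.03 ± 0.04 and 0.01 ± 0.07 (SD, n = 3 each). The log2 fold change was -0.02 (95% interval -0.25 to 0.20, limma adjusted p = 0.974), a ratio between 0.843 and 1.15 for the brighter of its 2 probes. Its sign is not settled, because it was 0.01 with normexp and quantile normalization, 0.01 with median scaling and 0.02 with the authors' processed values. The groups overlapped, with the highest and the lowest value both on LDL arrays.

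The co-receptors Boc and Cdon, cell surface proteins that present the ligand to Ptch1, differed from each other in how clearly the groups separated. Boc had -0.22, -0.15 and -0.02 with saline and -0.24, -0.25 and -0.06 on the LDL arrays. The means were -0.13 ± 0.10 and -0.18 ± 0.11 (SD, n = 3 each), and the log2 fold change was -0.05 (95% interval -0.30 to 0.21, limma adjusted p = 0.955). Both groups of Boc shared nearly the whole range, and without saline replicate 3 the value was 0.0059.

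Cdon had -1.21, -1.39 and -1.36 with saline and -1.55, -1.64 and -1.68 with LDL. Every LDL array was below every saline array. The means were -1.32 ± 0.10 and -1.63 ± 0.06 (SD, n = 3 each). LDL minus saline was -0.31 (SE 0.10, 95% interval -0.55 to -0.07). Its unadjusted p was 0.0182, at rank 819 of 24177 features, and it did not pass (limma adjusted p = 0.535, from 0.293 to 1 over the settings). The difference corresponds to 1.24-fold, with a ratio between 0.685 and 0.952. It held its size when arrays were left out, between -0.34 and -0.25, and across the scalings, between -0.29 and -0.27. Groups that did not overlap were found for 8.79% of all features with LDL lower and for 5.83% with LDL higher. Among the 9 genes there were 2 with LDL lower, Cdon and Smo, and 0 with LDL higher.

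**Figure D1:**
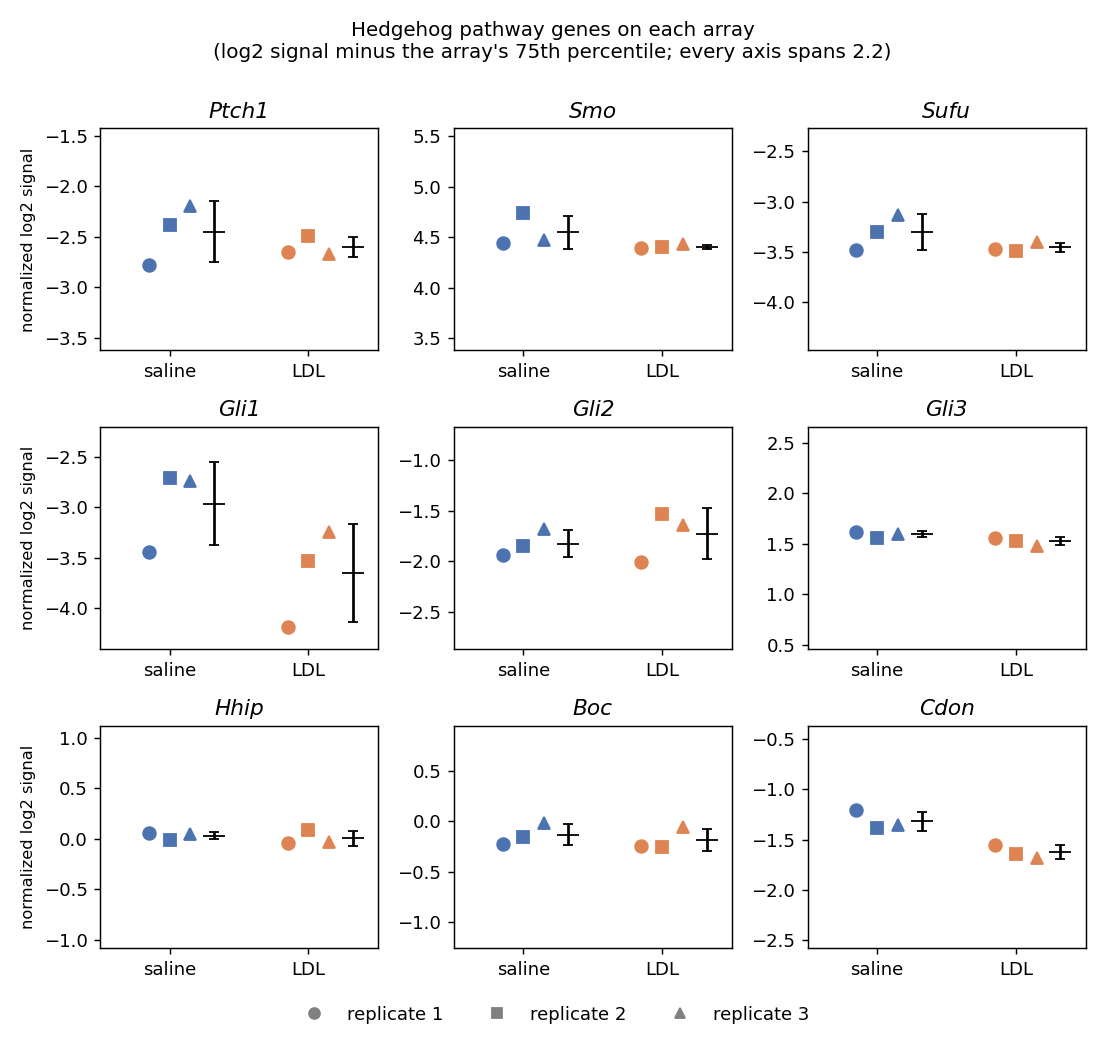
Normalized log2 signal of the 9 Hedgehog genes on each array, 1 panel a gene, with saline in blue, LDL in orange, a marker shape for each replicate number, and the mean ± SD (n = 3) in black. Every axis spans 2.2, and the groups of Cdon and, by a narrow margin, of Smo do not overlap, while Gli1 has the widest spread.

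Smo, the membrane protein that passes the signal to the Gli factors, had 4.44, 4.74 and 4.47 with saline and 4.39, 4.40 and 4.43 on the LDL arrays. The groups did not overlap, but the highest LDL value, 4.43, was next to the lowest saline value, 4.44. The means were 4.55 ± 0.16 and 4.41 ± 0.02 (SD, n = 3 each), for a log2 fold change of -0.14 (95% interval -0.41 to 0.12, limma adjusted p = 0.831). Saline replicate 2 was the array that stood high, and without it the difference was -0.05. It was larger in other settings, at -0.20 without saline replicate 1, -0.21 with the authors' values and -0.22 with normexp and quantile normalization, where its unadjusted p was below 0.05 (limma adjusted p = 0.528). The ratio of LDL to saline lay between 0.753 and 1.09.

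Sufu, which holds Gli factors back from the nucleus, had -3.48, -3.30 and -3.13 with saline and -3.47, -3.49 and -3.40 on LDL arrays, which sat at the low end of the saline range. The means were -3.30 ± 0.18 and -3.45 ± 0.05 (SD, n = 3 each), and the log2 fold change was -0.15 (95% interval -0.43 to 0.13, limma adjusted p = 0.835). It ranged from -0.24 to -0.06 with 1 array left out, and it was -0.0057 as the mean over both Sufu probes.

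Gli1, the factor that serves both as activator and as target of the pathway, had -3.44, -2.71 and -2.74 in saline replicates 1 to 3. In LDL replicates 1 to 3 it had -4.18, -3.53 and -3.24. The groups overlapped through 1 saline array, since saline replicate 1 lay below LDL replicate 3, and LDL replicate 1 was the lowest of all. The means were -2.96 ± 0.41 and -3.65 ± 0.48 (SD, n = 3 each), the largest SD in each group among the 9 genes. The log2 fold change was -0.69 (SE 0.29, 95% interval -1.38 to 0.0047), a 1.61-fold difference that did not pass (unadjusted p = 0.0512, limma adjusted p = 0.667). The ratio of LDL to saline lay between 0.385 and 1.00, a wide range.

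The size of the Gli1 difference depended on the processing and on single arrays. It was -0.36 with normexp and quantile normalization and -0.49 with the authors' processed values. It was -0.42 with LDL replicate 1 left out and -0.93 with saline replicate 1 left out. Its sign was negative in all 19 settings, and it passed in 0 of them, though in some of them no feature passed at all. The unadjusted limma p of Gli1 was below 0.05 without saline replicate 1 and without LDL replicate 3 (-0.89). This was also so with trended robust variances and with only features above background on all 6 arrays. The replicate block and the slide row block gave the same. In these settings its limma adjusted p ran from 0.271 to 0.796, and in the others the unadjusted p was not below 0.05. The processed signal of the Gli1 probe ran from 53.0 to 142 in linear units. All 6 spots were well above background, and the scanner software's own error estimate was between 10.6% and 17.3% of the signal, against 10.0% for both Smo probes on every array.

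Gli2, the main activator of the family, was the only 1 of the 9 with a positive difference. It had -1.94, -1.85 and -1.68 with saline and -2.01, -1.53 and -1.64 with LDL, and the LDL arrays held both the lowest and the highest value. The means were -1.82 ± 0.13 and -1.72 ± 0.25 (SD, n = 3 each), for a log2 fold change of 0.10 (95% interval -0.26 to 0.46, limma adjusted p = 0.926). Without LDL replicate 2 it was -0.00037, and without LDL replicate 1 it was 0.24.

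Gli3, the main repressor of the family, had replicates close together in both groups. It had 1.62, 1.56 and 1.60 with saline and 1.56, 1.53 and 1.48 with LDL, so the groups met at 1.56. The means were 1.59 ± 0.03 and 1.52 ± 0.04 (SD, n = 3 each), and the log2 fold change was -0.07 (95% interval -0.28 to 0.14, limma adjusted p = 0.909). Its ratio of LDL to saline lay between 0.823 and 1.10.

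Across the 9 genes, 8 differences were negative and 1 was positive, against 56.3% negative over all features. The median log2 fold change was -0.14, against -0.03 over all features. It was -0.06 without saline replicate 3 and -0.09 without saline replicate 2. With normexp and quantile normalization, median scaling or the authors' values, 7 differences were negative and 2 positive. A count over 9 genes that share a pathway is a description, not a test. For the brightest probe of each gene, in the fit as described, the lower limit of the interval was -1.38 for Gli1 and not below -0.55 for any of the other 8, and no upper limit exceeded 0.46. The second probes of Sufu and Hhip, described further on, had upper limits of 0.48 and 0.78.

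Genes of sterol synthesis show how large a response the same arrays recorded. Fdps, the farnesyl diphosphate synthase, went from 4.83 ± 0.09 with saline to 2.87 ± 0.11 with LDL (SD, n = 3 each), a log2 fold change of -1.96 (95% interval -2.21 to -1.71, limma adjusted p = 0.00453). Hmgcs1 fell from 5.79 ± 0.12 to 3.65 ± 0.26, by 2.15 on the log2 scale (95% interval -2.51 to -1.79, limma adjusted p = 0.00956). Both intervals lie below the intervals of all 9 Hedgehog genes. Of 10 sterol enzymes and regulators with the LDL receptor, 7 passed as lower and 3 did not pass. Those fixed genes were known from earlier results on these arrays to fall.

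**Figure D2:**
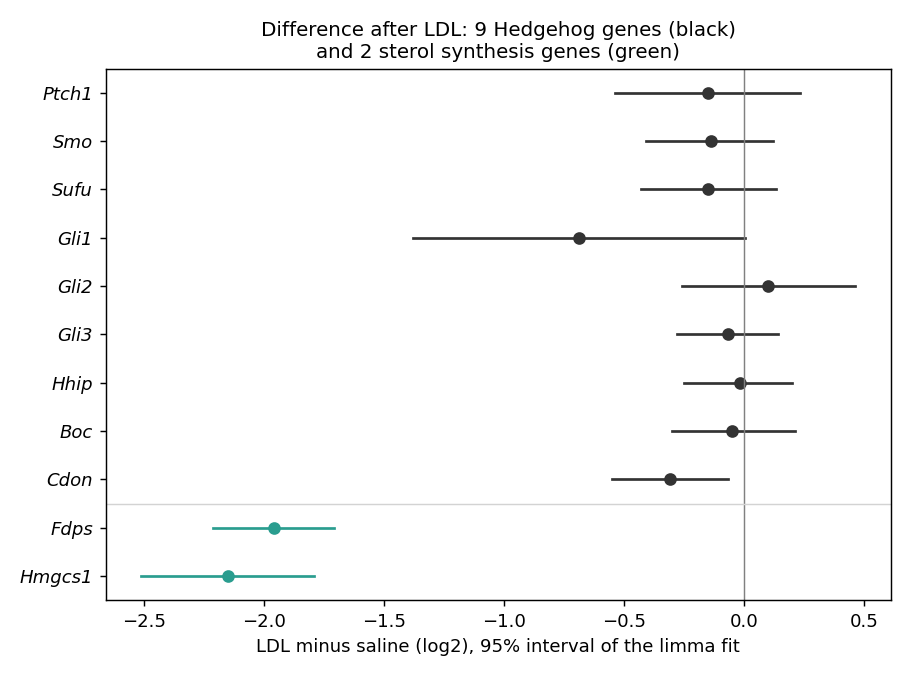
Difference between LDL and saline on the log2 scale, with the 95% interval of the limma fit, for the 9 Hedgehog genes in black and for Fdps and Hmgcs1 in green. The Hedgehog intervals hold 0 except that of Cdon, from -0.55 to -0.07, and those of Fdps and Hmgcs1 lie at or below -1.71.

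Smo, Sufu, Hhip and Cdon had 2 probes each, which gave a second reading of the same RNA. The dimmer Smo probe had 2.18, 1.80 and 1.92 with saline and 2.08, 2.01 and 1.73 with LDL, for a difference of -0.03 (95% interval -0.38 to 0.32). Its groups overlapped, unlike those of the brighter Smo probe. The dimmer Sufu probe had -3.72, -3.64 and -3.69 with saline and -3.38, -3.83 and -3.43 with LDL. Its difference was 0.14 (95% interval -0.20 to 0.48), opposite in sign to the -0.15 of the brighter probe. The dimmer Hhip probe had -3.78, -3.47 and -3.27 with saline and -3.45, -2.94 and -3.09 with LDL, a difference of 0.34 (95% interval -0.10 to 0.78). None of the 12 member probes that could be tested passed among the 32920 probes fitted singly, where the lowest limma adjusted p was 0.611, for the brighter Cdon probe.

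The second Cdon probe was well above background on 1 array, saline replicate 3, and was not tested. Its signal of 17.6 to 30.2 in linear units was near the scanner's floor, with an error estimate of up to 33.5%, and its group means were -5.21 and -5.31. The difference of Cdon therefore rests on 1 probe. With the mean over probes that passed the background filter, the difference was 0.16 for Hhip, -0.0057 for Sufu and -0.09 for Smo, and the median of the 9 genes was -0.07.

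**Figure D3:**
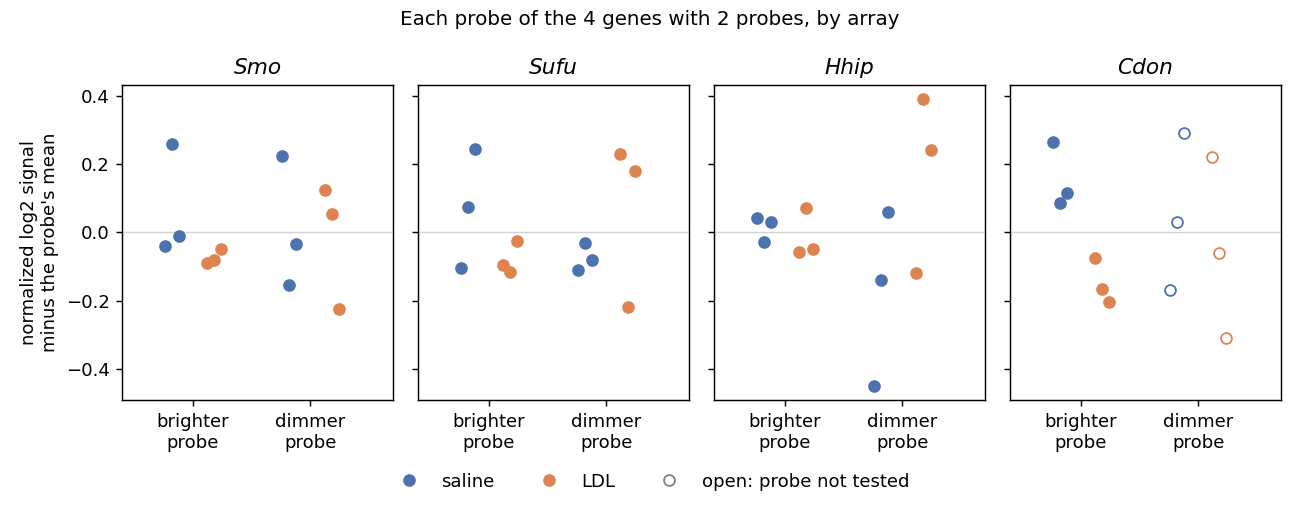
Normalized log2 signal of each probe on each array, minus the mean of that probe, for Smo, Sufu, Hhip and Cdon, with saline in blue, LDL in orange and open circles for the probe that was not tested. Only the brighter probes of Cdon and Smo have groups that do not overlap, and the dimmer probes of Sufu and Hhip differ in the opposite direction from the brighter ones.

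The rest of the pathway was read from 5 further gene lists, and 0 of their genes passed in either direction by limma. Of 9 genes for ligands and ligand release, 4 were tested, with a median of 0.04. The ligand genes Shh and Ihh were well above background on 0 arrays, and Dhh on 1 array of each group. Hhat, the enzyme that adds a fatty acid to the ligand, had -0.05. Disp2, of the family that releases ligand from cells, had 0.51 (95% interval 0.04 to 0.98, limma adjusted p = 0.634), and its relative Disp1 had 0.13. Scube2, a secreted carrier of ligand, had -0.34 (limma adjusted p = 0.771).

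Of 6 further receptors and surface modulators, all were tested, with 4 positive and 2 negative differences. Gpc3, a glypican that competes for ligand, had the smallest p of them. It had -3.47, -3.54 and -3.17 with saline and -4.52, -3.95 and -3.76 with LDL, so that every LDL array was lower. Its log2 fold change was -0.68 (95% interval -1.19 to -0.18, limma adjusted p = 0.518), and it was -0.30 in the scaling that gave the smallest value.

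The list of cilium and trafficking genes, 14 of 15 tested, had 10 positive and 4 negative differences and a median of 0.10. Tulp3, an adaptor that brings receptors into the cilium, had the smallest p of any gene on the 5 lists. It had 1.65, 1.86 and 1.80 with saline and 2.42, 2.2 and 2.18 with LDL, so that every LDL array was higher. LDL minus saline was 0.50 (SE 0.11, 95% interval 0.23 to 0.77, unadjusted p = 0.00323), at rank 208 of all features, and it did not pass (limma adjusted p = 0.372, 0.151 at the lowest over the settings). Ift172, a subunit of the transport complex of the cilium, had 0.22, and Arl13b, a ciliary GTPase, had -0.14 (limma adjusted p = 0.78 and 0.822).

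Kinases, arrestins and ubiquitin ligases of the pathway, 21 tested, had 8 positive and 13 negative differences and a median of -0.03. With median scaling the split was 11 and 10. Ulk3, a kinase of Gli factors, had -0.40, Prkar1a, a regulatory subunit of protein kinase A, 0.24, and Btrc, which takes part in processing Gli factors, -0.19 (limma adjusted p between 0.714 and 0.771).

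Among 12 tested targets of Gli factors on the list, 5 differences were positive and 7 negative, with a median of -0.06, so the targets did not share a direction. Ccnd1, the cyclin of early G1, had 6.03, 6.18 and 5.92 with saline and 6.88, 6.47 and 6.33 with LDL, each LDL array above each saline array. Its log2 fold change was 0.52 (95% interval 0.14 to 0.90, limma adjusted p = 0.518). Igfbp6, an IGF-binding protein, had 0.51 (95% interval 0.10 to 0.91, limma adjusted p = 0.55). Mycn, a growth-promoting transcription factor, had -0.65 (95% interval -1.19 to -0.12, limma adjusted p = 0.567), and -0.18 in the scaling that gave the smallest size. Mycn was well above background on all 3 arrays of only 1 group, and its LDL values were low, at -5.17, -5.08 and -4.69. Its interval thus rests in part on signals near background. With only features above background on all 6 arrays, 10 targets remained, 4 positive and 6 negative. Snai1 and Cdk6 were well above background on 0 arrays and Jag2 on 1.

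**Figure D4:**
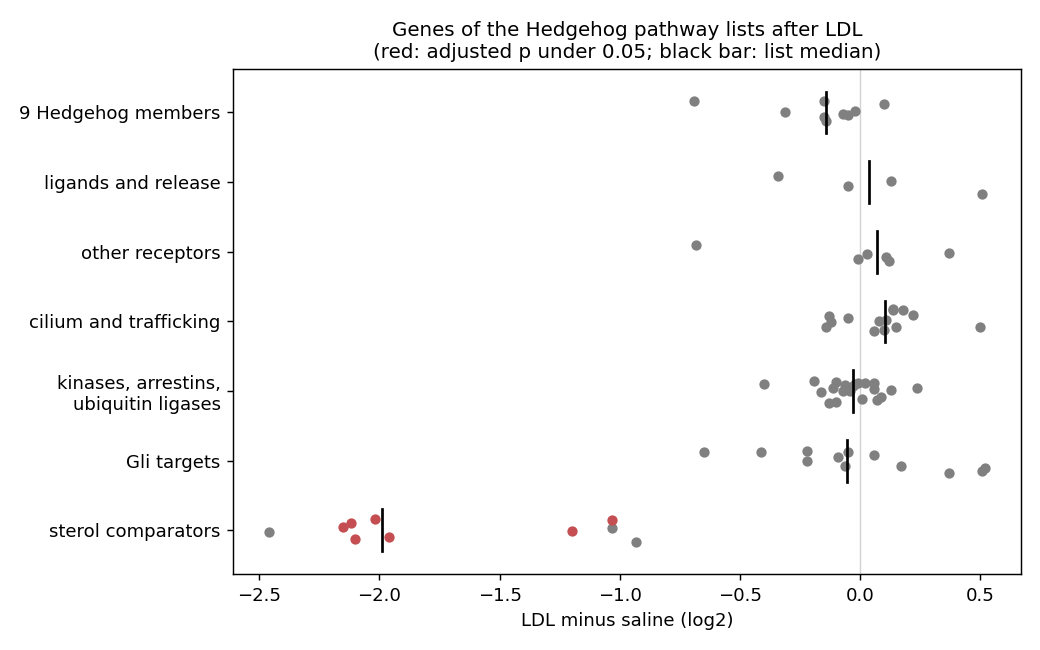
Difference between LDL and saline on the log2 scale for each tested gene of the Hedgehog members, of the 5 further pathway lists and of the 10 sterol comparators, with a black bar at the list median. Red points passed an adjusted p of 0.05 and occur only among the comparators, whose median was -1.99, while the pathway medians lie between -0.14 and 0.10.

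For Gli1 and Ptch1, the named features with the most similar profile were found by the root mean square difference of mean-centred log2 signals over the 6 arrays. Nearest to Gli1, whose values spanned 1.47, were Slc12a8, Ackr3 and Fam102a, at differences of 0.0945, 0.106 and 0.121. Nearest to Ptch1, which spanned 0.59, were Chst3, Dna2 and Sh3d19, at 0.0417, 0.0602 and 0.0614. With 6 arrays and many features, such nearness is a description.

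Markers were read beside these values. Of 10 precursor markers, 9 could be tested and 0 passed, and the other, Prom1, was above background on 4 arrays at most. Their summed linear signal, in units of the 75th percentile, ran from 328 to 405 with saline and from 355 to 384 with LDL. That of 7 astrocyte markers ran from 44.8 to 50.9 with saline and from 37.1 to 40.3 with LDL, without overlap, as for Cdon. Most of that sum was 1 gene, Slc1a3, the only 1 of the 7 whose own groups did not overlap with LDL lower. Without Slc1a3 the sum ran from 3.52 to 4.01 with saline and from 3.11 to 3.45 with LDL. Of the 7, only Gfap passed, and it was higher with LDL. The part of these markers in the Cdon and Gli1 values was not tested. Neuronal markers, 6 of 8 tested, ran from 19.8 to 26.4 and from 19.7 to 22.5, with Dcx and Neurod1 well above background on 0 arrays. Oligodendrocyte markers ran from 70.8 to 99.7 and from 65.8 to 85.2, microglial ones, 4 of 7 tested, from 19.8 to 24.6 and from 19.5 to 23.8, and vascular ones, 3 of 7 tested, from 14.3 to 15 and from 13.6 to 14.3. The brightest gene of each of these sums was Fabp7 for precursors, Snap25 for neurons, Olig1 for oligodendrocytes, Itgam for microglia and Kdr for vascular cells.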

How the data were processed

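Cyanine-3 cRNA made from 100 ng of total RNA was hybridized to 6 one-colour Agilent arrays on 1 slide, per the labels' protocols. The deposited files of the scanner give intensity per spot, not logged; per the file headers, Agilent Feature Extraction 10.7.3.1 subtracted background and detrended each array. R 3.4.4 and limma 3.34.9 are named in the submitters' processing notes. A table of log2 values was deposited by the authors for the same arrays, with column medians from 6.54 to 6.56 and correlations with the scanner values across probes from 0.987 to 0.993. How they were normalized was not given in the sources used here.

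From log2 of the processed signal, the 75th percentile of each array was subtracted. Control and outlier-flagged spots were left out, as were 73 probes with no unflagged spot on some array. Probes well above background (at least 50% of spots) on all 3 arrays of a group were tested. The files used here hold no gene name column, so 28331 of 55681 probes were named through unversioned RefSeq accessions (GRCm38.p6). Groups were compared by limma 3.58.1 in R 4.3.3 (lmFit, eBayes, two-sided), with Benjamini-Hochberg adjustment over all 24177 features. The fit was tested on simulated data, with 200 features changed in each of 5 runs. It recovered 62.4% of log2 changes of 1 and 91.6% of changes of 2. Of 884 calls over all runs, 54 were on unchanged features. Changes smaller than 1 were not simulated. With 3 arrays a group, the smallest p of an exact permutation test is 0.1. The scanner software's mean spot signal was not used here, so normexp (offset 50) took the median signal. Figures were drawn with matplotlib 3.10.9.

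The members and lists were chosen with earlier results of these data known. Named were all members and, of each other list, the 3 tested genes with the smallest p, with others named after their values were seen; some genes this rule names are not reported here.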

Additional observations from a re-analysis of the deposited data

How the results depend on the processing

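Under 18 alternatives, 17 of them planned and 1, flagged arrays as missing values, chosen after seeing the data, 0 of the 9 Hedgehog genes passed in limma; the lowest adjusted p ran from 0.271 to 1. Between 0 and 3 members had an unadjusted p below 0.05. The median of the 9, at -0.14, was -0.09 with normexp, -0.10 after quantile normalization alone, -0.10 in the authors' table, -0.11 with median scaling, -0.07 with the mean over probes, -0.06 on slide row 1 alone and from -0.20 to -0.06 with 1 array left out. The sign turned for Hhip with normexp (0.01), median scaling (0.01), the authors' values (0.02), the mean over probes (0.16) and on slide row 1 (0.00055), for Ptch1 on slide row 1 (0.0076), for Boc without saline replicate 3 (0.0059) and for Gli2 without LDL replicate 2 (-0.00037).

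Over all features, 5 higher became 9 with normexp, 8 by median scaling, 8 in the authors' table, 16 with trended robust variances, 0 with no filter, 0 when slide row was a block and 0 on slide row 1. The 28 lower became 0 without the filter, 15 when slide row was a block and 0 on slide row 1. When 1 array was dropped, the higher count ran from 0 to 7 and the lower from 0 to 25. Unadjusted p was below 0.05 for 1775 features without the filter and for 860 on slide row 1. The cause was not tested.

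The replicate block left 3 higher and 11 lower, 0 Hedgehog genes passed, and Gli1, at -0.69, had an adjusted p of 0.271. Arrays 1, 2 and 3 of both groups deviated from their group means with correlations of 0.24, -0.08 and 0.21 across genes. Saline replicates 1 and 3 correlated best with the LDL array of the same number, but saline replicate 2 did so with LDL replicate 3 (0.08). Pairing was therefore not assumed. By replicate number, the Gli1 differences were -0.74, -0.82 and -0.50. The second Cdon probe was too dim to be tested.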
